A study of Mus musculus with 14 samples.

Results

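The Hedgehog pathway genes described here are Shh, Ptch1, Smo, Gli1, Gli2, Gli3, Hhip and Sufu. They were picked by gene symbol in the platform annotation, without use of their values, and are 8 of the 18193 genes with a probe set of their own on the array (21 of 45037 probe sets). RNA came from pooled whole lungs of ICR mice and was hybridised to 14 oligonucleotide arrays, 2 for each of 7 time points. The time points were embryonic days 12, 14, 16 and 18 (E12, E14, E16 and E18), postnatal days 2 and 10 (P2 and P10), and postnatal day 30, called Adult. By the labels the groups differed by age, with no treatment and no mutant allele, and the day of the plug was day 0. How many lungs made a pool, and whether both pools of a time point were separate, is not given in the sources used here, so each p measures the spread between these arrays, which may be technical.

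Hedgehog proteins are secreted signals. In the embryonic lung the epithelium of the growing airways makes Sonic hedgehog (Shh), and the cells that answer lie mostly in the mesenchyme around it. The receptor Ptch1 holds the membrane protein Smo inactive until it binds Shh. Active Smo releases the zinc finger factors Gli1, Gli2 and Gli3 from the inhibitor Sufu. Gli2 is known mainly as an activator and Gli3 mainly as a repressor of target genes. Ptch1, Gli1 and the ligand trap Hhip are themselves target genes in many tissues, and Gli1 is widely used as a readout of the pathway. Loss of Shh in the mouse leaves a lung with little branching.

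Promoter windows (250 bases before to 50 after the gene start) were held by RefSeq on GRCm38.p6 for 6 of the 8 genes, all but Shh and Gli1. They are shown for 2 genes with opposite courses, Gli2, which fell before birth, and Hhip, which was highest just before birth. Both are written 5′ to 3′ along the gene's strand, and capitals mark CCACCC or its reverse complement GGGTGG, the middle of the DNA letters known to be bound by Gli factors. The Gli2 window is chr1:119053570-119053869 and the Hhip window chr8:80057959-80058258, both on the minus strand.
Gli2: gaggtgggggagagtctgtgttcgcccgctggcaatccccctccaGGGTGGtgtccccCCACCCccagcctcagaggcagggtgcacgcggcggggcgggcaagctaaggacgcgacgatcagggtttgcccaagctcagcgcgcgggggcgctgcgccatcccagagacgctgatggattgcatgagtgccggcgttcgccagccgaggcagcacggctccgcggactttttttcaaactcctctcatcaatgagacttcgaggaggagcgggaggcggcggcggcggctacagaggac
Hhip: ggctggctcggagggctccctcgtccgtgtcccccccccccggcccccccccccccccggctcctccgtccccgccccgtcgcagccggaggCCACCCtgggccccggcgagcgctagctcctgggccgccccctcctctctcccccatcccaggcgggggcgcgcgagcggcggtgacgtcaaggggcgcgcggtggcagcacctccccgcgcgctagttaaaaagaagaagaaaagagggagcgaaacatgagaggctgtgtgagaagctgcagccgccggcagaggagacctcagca

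The full Gli site GACCACCCA was in 0 of the 6 windows on either strand, and in 0.253% of the 32851 windows of all genes. The shorter CCACCC, which lies inside it, was in 4 of the 6 (Gli2, Gli3, Smo and Hhip) and in 31.5% of all windows. The windows of Ptch1 and Sufu held neither. Of 39 windows of the other pathway genes listed, 23.1% held CCACCC. Such a match is a run of letters and does not show that a factor binds there.

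Array values were log2 as deposited and lay between 2.53 and 14.99, with array medians between 6.55 and 6.62. Correlations between the replicates of a time point ran from 0.9953 to 0.9977. The labels call all 14 arrays female, but the 4 arrays of P2 and P10 had Xist, which is made from the inactive X chromosome, at 6.88 to 7.41, whereas the other 10 had it at 11.97 to 13.32. The Y-linked gene Eif2s3y was at 8.35 to 8.61 on those 4 arrays, at 3.60 and 2.86 in Adult, at 3.13 in E16 replicate 2, and at 6.95 to 8.10 on the other 7 embryonic arrays. The sex of the pooled mice, as read from these genes, therefore changed together with age between E18 and P2 and between P10 and Adult. It also changed between E12 and Adult, where Eif2s3y fell by 4.18 in Adult (adjusted p = 0.00047). Between E16 and E18 it shifted as well. Eif2s3y rose there by 2.74 (adjusted p = 0.0151), with E16 replicate 2 the only array of that step where it was low. The same array enters the step from E14 to E16, where Eif2s3y differed by -1.85 and did not pass the test (adjusted p = 0.147). The part of sex in those comparisons cannot be told apart from that of age. The E16 arrays differed in heart muscle genes: the myosin light chain gene Myl2 reached 12.63 and 8.84 there, and at most 6.27 on the other arrays. All 6 heart muscle markers had a time-point mean above 7. Myl2 and Nppa had their highest mean at E16, Myl7 at P2, and Myh6, Tnni3 and Actc1 in Adult. The summed level of the 6 in linear array units was 18300 and 3900 in E16 replicates 1 and 2. It was 9570 to 11400 at P2 and 9340 to 12600 in Adult, above that of E16 replicate 2. Of the 4 liver markers 0 had a time-point mean above 7, and of the cartilage markers 2 of 5 did. The nerve and glia list had 2 of 3 and the mesothelium list 4 of 4 above 7.

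The genes other than Sufu followed 2 courses. The ligand gene Shh and the trap gene Hhip had a higher mean at each embryonic stage than at the one before, were highest at E18 and lowest in Adult. Ptch1, Smo, Gli1, Gli2 and Gli3 were highest at E12 or E14 and lowest in Adult. Ptch1 and the 3 Gli genes had a lower mean at E18 than at P2 and P10. By limma the difference between P2 and E18 did not pass for Ptch1 (0.15, adjusted p = 0.443) or Gli3 (0.25, adjusted p = 0.316). Sufu followed neither course: it had the smallest range and was lowest at E16. The values come from whole lung, in which fewer cells of a type and less RNA per cell cannot be told apart. In the moderated F test of limma across the 7 time points, 8 of 8 genes had an adjusted p under 0.05, against 73.2% of all genes. Dynamic genes, which also needed a highest time-point mean above 7 and a range between time-point means above 1.2, were 6 of 8, against 26.7% of all genes. Ptch1, with a range of 0.89, and Sufu, with 0.60, stayed below the range threshold. All 8 genes had their highest mean above 7.

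**Figure D1:**
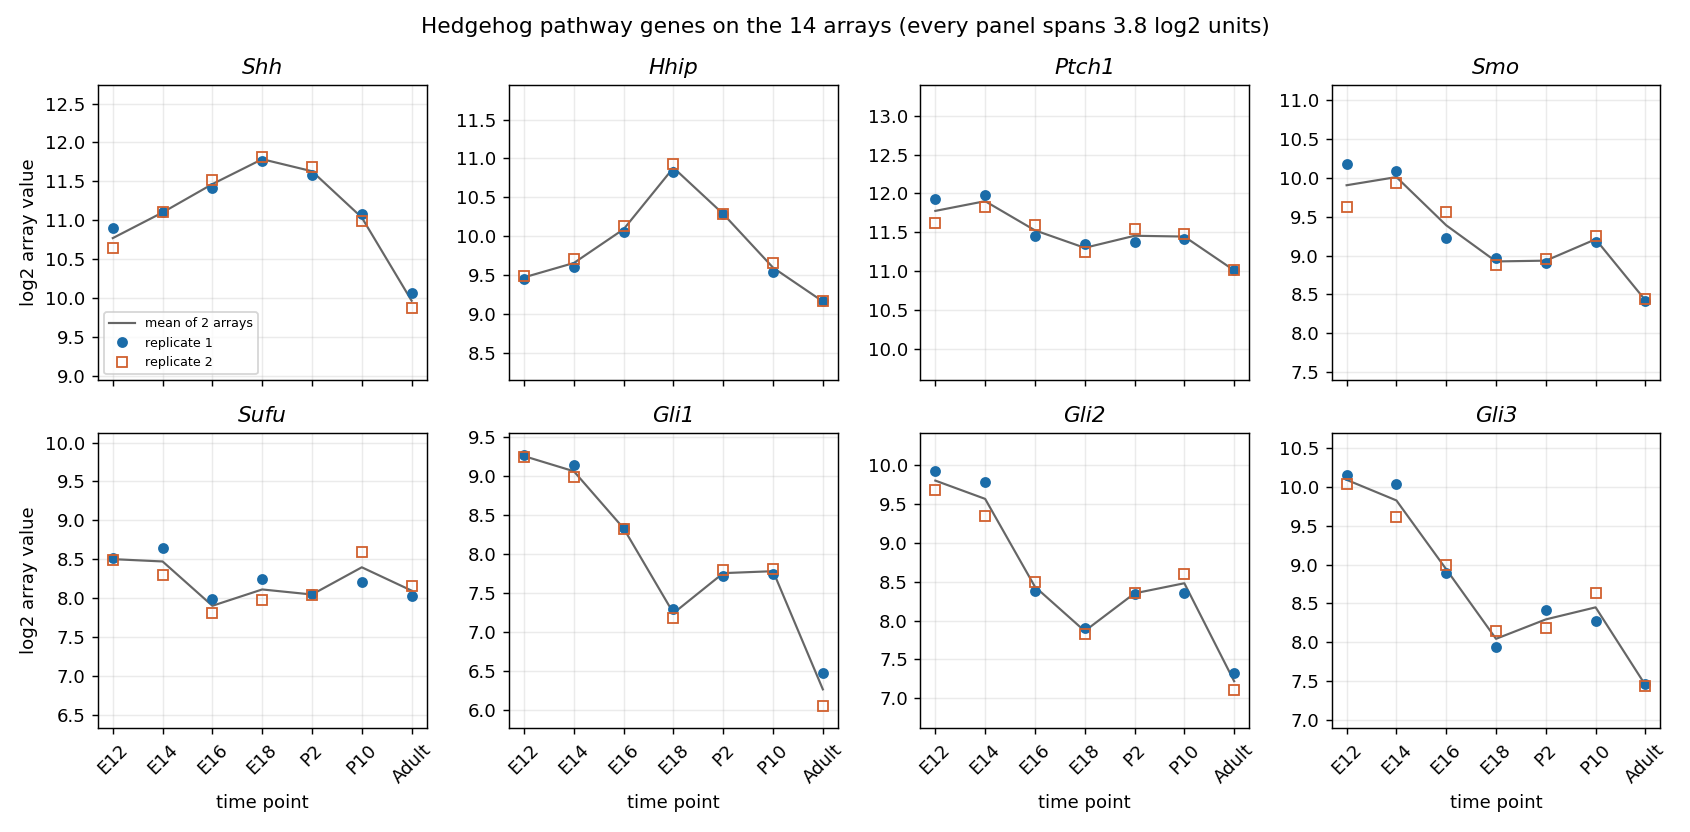
Log2 array values (y axis) of the 8 Hedgehog pathway genes at the 7 time points (x axis, equally spaced), with circles for replicate 1, squares for replicate 2 and lines through the means of 2 arrays. Every panel spans 3.8 log2 units, so slopes can be compared: Shh and Hhip peak at E18, and Gli1 has the widest range, 3.0.

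Shh, the ligand, stood at 10.90 and 10.64 on the E12 arrays, 11.10 and 11.10 at E14, 11.41 and 11.52 at E16, 11.76 and 11.81 at E18, 11.58 and 11.68 at P2, 11.08 and 10.99 at P10, and 10.06 and 9.87 in Adult. The Adult arrays were below every other array, and the E18 arrays above every other array. Across time points the range was 1.82, a 3.52-fold difference (adjusted p = 4.01e-08). Shh fell by 0.80 (SE 0.106, adjusted p = 1.53e-05) in Adult relative to E12, and the Adult mean differed from that of E18 by -1.82, with a 95% interval from -2.05 to -1.59. Most of the decline came late: P10 was 0.60 lower than P2 (adjusted p = 0.00441) and Adult 1.07 lower than P10 (adjusted p = 6.34e-06). The rises were smaller, 0.37 at E16 relative to E14 (adjusted p = 0.0312) and 0.32 at E18 relative to E16 (adjusted p = 0.0292). The first was lost without E14 replicate 1, E14 replicate 2, E16 replicate 1 or E16 replicate 2 (adjusted p between 0.073 and 0.154), and the second without E16 replicate 1, E18 replicate 1 or E18 replicate 2 (0.0711 to 0.165). The fall at P10 had an adjusted p = 0.0524 without P2 replicate 2. In the order of its levels Shh ran E18, P2, E16, E14, P10, E12 and Adult. The 95% intervals of the difference held 0 for E18 and P2, for P2 and E16, and for E14 and P10.

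Hhip, a membrane protein that binds Hedgehog ligands and keeps them from Ptch1, was at 9.45 and 9.49 at E12, 9.60 and 9.71 at E14, 10.05 and 10.13 at E16, 10.83 and 10.93 at E18, 10.29 and 10.28 at P2, 9.54 and 9.65 at P10, and 9.16 and 9.16 in Adult. Its E18 arrays lay above all others with no overlap, and its Adult arrays below all others. The sharpest change was the rise of 0.79 (SE 0.0865, adjusted p = 7.06e-06) at E18 relative to E16. It then fell by 0.59 at P2 (adjusted p = 0.00047), by 0.69 at P10 (adjusted p = 0.000362) and by 0.44 in Adult (adjusted p = 0.00178), each relative to the time point before. The rise of 0.44 at E16 relative to E14 (adjusted p = 0.00374) had an adjusted p = 0.0512 without E14 replicate 1. Between the ends of the time course Hhip changed little, with Adult 0.31 lower than E12 (SE 0.0865, adjusted p = 0.00692). That small fall was 0.18 with an adjusted p = 0.0831 after quantile normalization. Neighbours in the order of its levels (E18, P2, E16, E14, P10, E12 and Adult) differed beyond their 95% interval except E14 and P10, and P10 and E12.

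Ptch1, the receptor, had 11.93 and 11.62 at E12, 11.98 and 11.82 at E14, 11.45 and 11.60 at E16, 11.35 and 11.25 at E18, 11.37 and 11.54 at P2, 11.41 and 11.48 at P10, and 11.01 and 11.01 in Adult. The Adult arrays were lowest, the E18 arrays next, and those of E16, P2 and P10 overlapped. Ptch1 fell by 0.76 (SE 0.115, adjusted p = 5.18e-05) in Adult relative to E12, a 1.69-fold difference. Single steps were small: E16 was 0.37 lower than E14 (adjusted p = 0.04) and Adult 0.43 lower than P10 (adjusted p = 0.0123). The fall at E16 was lost without E14 replicate 1, E14 replicate 2, E16 replicate 1, E16 replicate 2, Adult replicate 1 or Adult replicate 2 (adjusted p between 0.0503 and 0.263). The fall in Adult was lost without P10 replicate 2, Adult replicate 1 or Adult replicate 2 (0.0548 to 0.0729). In the order E14, E12, E16, P2, P10, E18 and Adult, only E18 and Adult had an interval of the difference without 0.

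The size of the Ptch1 decline depended on the probe set. Probe set 1439663_at, designed to another sequence entry of the gene, gave 9.46 and 9.28 at E12, 9.34 and 9.17 at E14, 8.91 and 8.80 at E16, 8.03 and 7.70 at E18, 8.24 and 8.06 at P2, 8.10 and 7.87 at P10, and 6.61 and 6.63 in Adult. It fell by 2.75 (SE 0.127, adjusted p = 3.45e-10) in Adult relative to E12, which is 6.73-fold, and its range passed the threshold for a dynamic gene. At E18 it was 0.99 lower than at E16 (adjusted p = 2.95e-05), a step in which the brighter 1428853_at was 0.22 lower (adjusted p = 0.145). The dimmest, 1450824_at, was 0.91 lower in Adult than at E12 (adjusted p = 0.000103). All 3 probe sets thus gave a fall, of 0.76, 2.75 and 0.91, and which of them is closest to the change of the Ptch1 mRNA was not tested.

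Smo, the membrane protein that carries the signal on, measured 10.18 and 9.63 at E12, 10.09 and 9.93 at E14, 9.22 and 9.56 at E16, 8.97 and 8.88 at E18, 8.91 and 8.96 at P2, 9.17 and 9.25 at P10, and 8.41 and 8.44 in Adult. The E12 and E14 arrays overlapped and lay above all later ones, and the Adult arrays were lowest without overlap. Smo fell by 1.48 (SE 0.153, adjusted p = 1.31e-06) in Adult relative to E12. It was 0.62 lower at E16 than at E14 (adjusted p = 0.0138), 0.47 lower at E18 than at E16 (adjusted p = 0.0268) and 0.79 lower in Adult than at P10 (adjusted p = 0.00166). The first of these was lost without E14 replicate 1 or E16 replicate 1 (adjusted p = 0.117 and 0.156), and the second without E16 replicate 2, E18 replicate 1 or E18 replicate 2 (0.0651 to 0.23). In the order E14, E12, E16, P10, P2, E18 and Adult, the interval of the difference was clear of 0 only between E12 and E16 and between E18 and Adult.

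Sufu, the inhibitor that binds Gli proteins in the cytoplasm, was at 8.51 and 8.49 at E12, 8.64 and 8.30 at E14, 7.99 and 7.81 at E16, 8.25 and 7.97 at E18, 8.05 and 8.04 at P2, 8.20 and 8.59 at P10, and 8.03 and 8.16 in Adult. Arrays of most time points overlapped, and every pair of neighbours in the order of its levels had a 95% interval that held 0. Adult was 0.41 lower than E12 (SE 0.144, adjusted p = 0.0253) and E16 was 0.57 lower than E14 (adjusted p = 0.0151). The first call was lost without E12 replicate 1, E12 replicate 2 or Adult replicate 1 (adjusted p between 0.0725 and 0.131), and the second without E14 replicate 1 or E16 replicate 2 (0.173 and 0.0979). Without P10 replicate 1, Adult was lower than P10 as well (adjusted p = 0.0399). The F test of Sufu across time points had an adjusted p = 0.00935, which was 0.0699 with the unmoderated test. The dimmer probe sets 1431713_at and 1420848_at differed by 0.00 and -0.10 between Adult and E12 (adjusted p = 0.979 and 0.556).

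Gli1, the Gli factor that is itself induced by the pathway, had the widest range of the 8 genes, 3.0 or 7.99-fold. Its arrays gave 9.27 and 9.25 at E12, 9.14 and 8.99 at E14, 8.34 and 8.32 at E16, 7.30 and 7.18 at E18, 7.72 and 7.79 at P2, 7.75 and 7.81 at P10, and 6.47 and 6.05 in Adult. Groups did not overlap except P2 and P10, whose difference of 0.02 had an interval from -0.24 to 0.29. Gli1 fell by 3.0 (SE 0.121, adjusted p = 9.15e-11) in Adult relative to E12. The fall came in 3 steps, 0.73 at E16 relative to E14 (adjusted p = 0.00113), 1.09 at E18 relative to E16 (adjusted p = 7.51e-06) and 1.52 in Adult relative to P10 (adjusted p = 8.43e-07). Between them stood a rise of 0.52 at P2 relative to E18 (adjusted p = 0.0106), which was lost without E18 replicate 2 or P2 replicate 2 (adjusted p = 0.0718 and 0.0837). The array holds a single probe set of Gli1.

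Gli2, the main activator, stood at 9.92 and 9.68 at E12, 9.78 and 9.35 at E14, 8.38 and 8.49 at E16, 7.90 and 7.83 at E18, 8.34 and 8.36 at P2, 8.36 and 8.60 at P10, and 7.33 and 7.11 in Adult. The Adult arrays lay below all others and the E18 arrays below the rest, while P10 overlapped with E16 and P2, and E12 with E14. It fell by 2.58 (SE 0.141, adjusted p = 1.87e-09) in Adult relative to E12, which is 5.98-fold. Before birth its largest step came at E16, where it fell by 1.13 relative to E14 (adjusted p = 0.000134), whereas that of Gli1 came at E18. Whether this difference in timing exceeds the error was not tested. Gli2 also fell by 0.57 at E18 (adjusted p = 0.00544) and by 1.26 in Adult (adjusted p = 1.85e-05), each relative to the time point before. With the dimmer probe set 1446086_s_at the step from P10 to Adult was -0.47 (adjusted p = 0.0972) and no longer passed the test, nor did that from E18 to P2, with 0.27 (adjusted p = 0.415). The rise of 0.49 at P2 relative to E18 (adjusted p = 0.034) was lost without E18 replicate 1, E18 replicate 2, P2 replicate 1 or P2 replicate 2 (adjusted p between 0.105 and 0.147).

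Gli3, the main repressor, gave 10.15 and 10.03 at E12, 10.04 and 9.61 at E14, 8.89 and 8.99 at E16, 7.94 and 8.15 at E18, 8.41 and 8.18 at P2, 8.27 and 8.63 at P10, and 7.46 and 7.44 in Adult. Its Adult arrays were lowest and its E18 arrays next, with P2 and P10 overlapping above them. Gli3 fell by 2.64 (SE 0.151, adjusted p = 2.94e-09) in Adult relative to E12, or 6.22-fold. The steps were falls of 0.88 at E16 (adjusted p = 0.0014), 0.90 at E18 (adjusted p = 0.000298) and 0.99 in Adult (adjusted p = 0.000239), each relative to the time point before. P2 was 0.25 above E18 (adjusted p = 0.316), so the dip at E18 did not pass the test for this probe set. Probe set 1455154_at, dimmer by its mean, fell by 3.13 (adjusted p = 2.93e-11) in Adult relative to E12, and its P2 mean was 0.38 above E18 (adjusted p = 0.0369). The dimmest, 1450525_at, fell by 1.44 (adjusted p = 5.77e-07) in Adult relative to E12 and by 0.44 at E18 (adjusted p = 0.0197). Its differences at E16 and between Adult and P10, -0.33 and -0.32, did not pass the test (adjusted p = 0.121 and 0.112).

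Between the ends of the time course all 8 genes were lower in Adult than at E12, with a median of -1.14, against 30.2% of all genes lower, 35.0% higher and a median over all genes of 0.08. Of the 8 genes 0 were higher in Adult by limma, also at an unadjusted p under 0.05 and with the unmoderated test. At the first step, E14 minus E12, limma called 0 of 8 genes higher and 0 lower, against 3.41% and 0.918% of all genes. At an unadjusted p under 0.05 the count was 2 higher, Shh with a difference of 0.33 and Hhip with 0.19, and 0 lower, and the unmoderated test called 0 in either direction. At E16 minus E14, 2 genes were higher and 6 lower, against 9.95% and 10.6% of all genes. At E18 minus E16, 2 were higher (Shh and Hhip) and 4 lower (Smo and the 3 Gli genes), against 24.8% and 21.6%. Around birth, P2 minus E18, 2 were higher (Gli1 and Gli2) and 1 lower (Hhip), against 8.58% and 10.0%. At P10 minus P2, 0 were higher (1 at an unadjusted p under 0.05, Sufu with 0.35, and 0 with the unmoderated test) and 2 lower (Shh and Hhip), against 4.82% and 4.37%. At Adult minus P10, 0 were higher, also at an unadjusted p under 0.05 and with the unmoderated test, and 7 lower, all but Sufu, against 16.8% and 14.9%. Neighbouring steps share arrays, and values in one step therefore bear on the next.

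**Figure D2:**
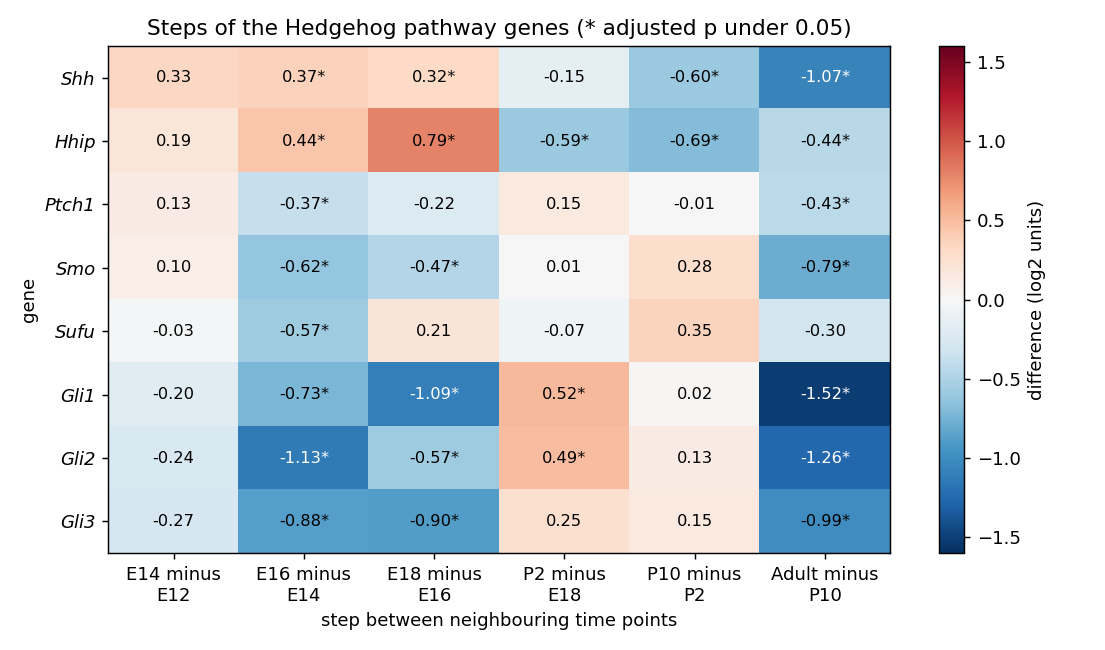
Difference in log2 units between each time point and the one before it (x axis) for the 8 genes (y axis), with red above 0, blue below 0 and an asterisk at an adjusted p under 0.05. Shh and Hhip are red up to E18 and blue after it, while Smo and the Gli genes are blue at E16 and E18 and darkest in the step from P10 to Adult for Gli1, -1.52.

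The other probe sets gave the same direction for most genes. All 4 probe sets of Hhip were highest at E18 and lowest in Adult. Their rise at E18 relative to E16 lay between 0.51 and 1.12, and their fall in Adult relative to E12 between 0.31 and 1.16, so the small net decline of the brightest was the smallest of the 4. The dimmer probe set of Shh, 1427571_at, had means near the Max threshold, with 7.05 and 6.66 at E12, 7.25 and 7.34 at E18 and 5.40 and 5.17 in Adult. It fell by 1.57 in Adult relative to E12 (adjusted p = 4.91e-05) but was level between E18 and E16, with a difference of -0.01 and a 95% interval from -0.51 to 0.50. Its difference at E16 relative to E14 was 0.11 (adjusted p = 0.813). Both prenatal rises of Shh thus passed the test with the brighter probe set only, and with the mean of both probe sets they were 0.24 and 0.16 (adjusted p = 0.354 and 0.48). Smo 1427048_at fell by 1.9 and Gli2 1446086_s_at by 1.89 in Adult relative to E12 (adjusted p = 2.01e-08 and 1.1e-06). The probe set Smo 1442215_at stayed at or below 4.49 on all arrays, near the lower end of the values.

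**Figure D3:**
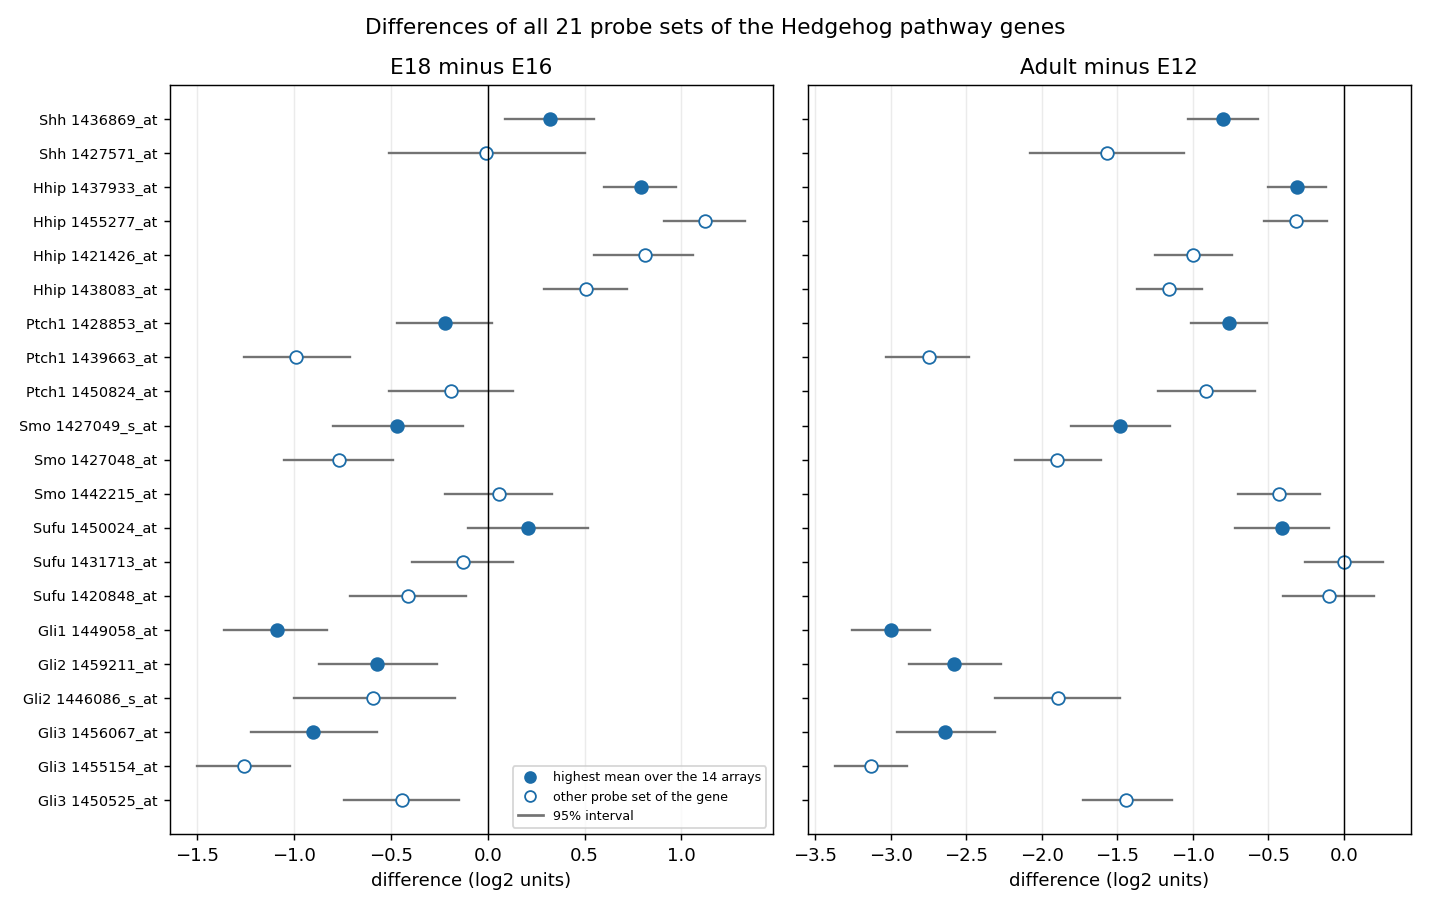
Differences in log2 units (x axis) for the 21 probe sets of the 8 genes (y axis), E18 minus E16 on the left and Adult minus E12 on the right. Filled circles are the probe sets that stand for the genes, open circles the others, and lines the 95% intervals; the probe sets of Hhip lie right of 0 on the left, and Ptch1 spans -2.75 to -0.76 on the right.

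Epithelium markers, for the tissue that makes Shh, had a time-point mean above 7 for 7 of 7 genes. Their summed level was 6150 to 6490 in linear array units at E12, 13100 to 13200 at E18, 5420 to 5940 at P10 and 8570 to 9070 in Adult, so it was highest at E18. Its genes were split in the step in which Shh and Hhip rose, with 3 of 7 higher and 2 lower at E18 than at E16: Cdh1, Krt8 and Krt18 rose by 0.74, 0.45 and 0.45, whereas Epcam fell by 1.13 and Cldn4 by 0.59 (adjusted p = 6.5e-07 and 0.0105). In Adult relative to E12, 4 of the 7 were higher and 2 lower. Mesenchyme markers, for the tissue that answers, summed to 16300 to 17600 at E12, 28500 to 30000 at E18, 35200 to 36000 at P10 and 18400 to 18500 in Adult, with 5 of 7 higher and 0 lower at E18 relative to E16, the step in which the Gli genes fell. Relative to P10, 6 of the 7 were lower and 1 higher in Adult. Smooth muscle markers had 0 higher and 4 lower of 7 at E18 relative to E16 and 5 higher and 0 lower at P2 relative to E18. Proliferation markers, of which 5 of 6 had a probe set, were 5 of 5 lower in Adult than at E12 (median -5.00), 5 of 5 lower at E18 than at E16 (median -2.80), 3 of 5 higher at P2 than at E18, and 5 of 5 lower in Adult than at P10 (median -2.40). Gli1 and Gli2 went the same way in these comparisons, but not all of the 8 genes did. Shh and Hhip rose at E18 relative to E16. At P2 relative to E18, 5 of the 8 did not pass the test and Hhip fell. At E16 relative to E14, where Gli1 fell by 0.73 and Gli2 fell by 1.13, only 1 of the 5 proliferation markers was lower (median -0.03). Endothelium markers (5 of 5) and leukocyte markers (5 of 5) were higher in Adult than at E12. Of all genes, 9.95% were higher and 10.6% lower at E16 relative to E14, and 24.8% and 21.6% at E18 relative to E16. The shares were 8.58% and 10.0% at P2 relative to E18, and 16.8% and 14.9% in Adult relative to P10. In Adult relative to E12 they were 35.0% and 30.2%. The part of the marker shifts in the values of the Hedgehog genes was not tested.

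Of the 45 other pathway genes listed, 42 had a probe set, and 36 of these had a time-point mean above 7. In Adult relative to E12, 10 were higher and 21 lower, with a median of -0.32, against 35.0% and 30.2% of all genes. At E18 relative to E16, 7 were higher and 13 lower, with a median of -0.01, against 24.8% and 21.6% of all genes.

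Among genes for ligands and their release, Scube2 stood out. Scube2, a secreted protein that helps to release Hedgehog from the producing cell, was at 6.19 and 5.85 at E12, 6.17 and 6.29 at E14, 7.47 and 7.46 at E16, 10.20 and 10.00 at E18, 9.65 and 9.57 at P2, 10.98 and 11.18 at P10, and 10.23 and 10.49 in Adult. The arrays up to E16 were all below those from E18 on. It rose by 2.64 (SE 0.129, adjusted p = 4.35e-09) at E18 relative to E16 and by 4.34 (adjusted p = 6.25e-12) in Adult relative to E12. Dhh, the Desert hedgehog ligand, was at 7.56 and 7.34 at P2 and 6.45 and 6.64 at E18, a rise of 0.91 (adjusted p = 0.000204), and at 7.13 and 6.97 in Adult against 6.15 and 5.93 at E12. Ihh, the Indian hedgehog ligand, stayed between 5.02 and 5.62 on all 14 arrays. Hhat, which attaches palmitate to Hedgehog proteins, fell by 1.41 (adjusted p = 5.23e-06), and Disp1, which exports them, fell by 0.66 (adjusted p = 5.97e-05), both in Adult relative to E12. Hhat means lay between 5.26 and 6.92, below the Max threshold. Scube1 and Scube3 differed by 0.06 and -0.32 (adjusted p = 0.63 and 0.0683). In all, 2 of 7 genes of this list were higher and 2 lower, against 35.0% and 30.2% of all genes.

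The co-receptors that help Ptch1 to bind the ligand, Cdon, Boc and Gas1, fell by 0.50, 0.70 and 0.94 in Adult relative to E12 (adjusted p = 0.00149, 6.19e-05 and 3.71e-06). The heparan sulfate proteoglycan gene Gpc3, which competes with Ptch1 for the ligand, had 9.32 and 10.36 in Adult, against 10.95 and 10.97 at E12, and fell by 1.12 (SE 0.3, adjusted p = 0.00524). Without Adult replicate 1, an alternative added after the data were seen, its difference was -0.60 (adjusted p = 0.089). Lrp2, a large endocytic receptor, went the other way, with 8.44 and 8.69 in Adult and 6.18 and 6.32 at E12, and rose by 2.32 (adjusted p = 1.81e-08). Thus 1 of 5 measured genes of this list was higher and 4 lower, against 35.0% and 30.2% of all genes.

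For signal transduction and the primary cilium, where the pathway acts in mammals, 5 of 20 genes were higher and 10 lower in Adult than at E12. The shares of all genes were 35.0% and 30.2%. Gpr161, a ciliary receptor that restrains the pathway, fell by 2.06 (adjusted p = 2.46e-08). Evc and Evc2, partners of Smo at the base of the cilium, both fell by 1.15 (adjusted p = 7.15e-07 and 2.51e-07), and the kinesin subunit gene Kif3a fell by 1.07 (adjusted p = 3.84e-07). Spop, which marks Gli2 and Gli3 proteins for degradation, rose by 1.62 (adjusted p = 1.63e-07), and Arrb2, a beta-arrestin, rose by 0.69 (adjusted p = 4.95e-06). The last genes of this list given here were chosen after their values were seen. Ift88 and Ift172, which carry cargo along the cilium, differed by -0.10 and 0.27 (adjusted p = 0.432 and 0.11). Stk36, a kinase with a role in motile cilia of the mouse, was at 9.21 and 8.86 at E18 and 6.6 and 6.13 at E16, a rise of 2.67 (adjusted p = 5.88e-07). Fuz and Intu, counted above with 0.33 and -0.37 in Adult relative to E12, lost their calls in alternatives added after the data were seen. For Fuz this was without E12 replicate 2, Adult replicate 1 or Adult replicate 2, and for Intu without E12 replicate 2 or Adult replicate 1. The highest Fuz mean was 6.7, below the Max threshold.

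Genes known as targets of the pathway or as partner signals in lung went in both directions. In Adult relative to E12, 2 of 10 were higher and 5 lower, against 35.0% and 30.2% of all genes. Among the 5, Ccnd1 (-0.33) lost its call without E12 replicate 1, an alternative added after the data were seen. Mycn, a transcription factor gene of dividing progenitor cells, fell by 3.03 (SE 0.178, adjusted p = 3.87e-09), with steps of -0.97 at E16, -1.17 at E18 and -1.35 in Adult (adjusted p = 0.00234, 0.000123 and 7.38e-05). These are the same 3 steps in which Gli1 fell, as did Gli2, Gli3 and Smo. Of all genes, 10.6%, 21.6% and 14.9% were lower in them. A link between Mycn and Gli1 was not tested. Wnt2, a mesenchymal Wnt ligand, fell by 1.87 (adjusted p = 2.89e-10), Fgf10, the mesenchymal signal for bud outgrowth, by 0.98 (adjusted p = 5.63e-06), and Ccnd2, a D-type cyclin, by 0.81 (adjusted p = 4.46e-05). Fgf10 means lay between 5.08 and 6.17, below the Max threshold. Foxf1, a transcription factor of lung mesenchyme downstream of Shh, went in the opposite direction to Gli1 and Ptch1 between these ages. It stood at 10.64 and 10.91 in Adult and 10.12 and 10.01 at E12, and rose by 0.71 (adjusted p = 8.23e-05). Bmp4 rose by 1.09 (adjusted p = 1.6e-06), with no single step past the threshold.

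**Figure D4:**
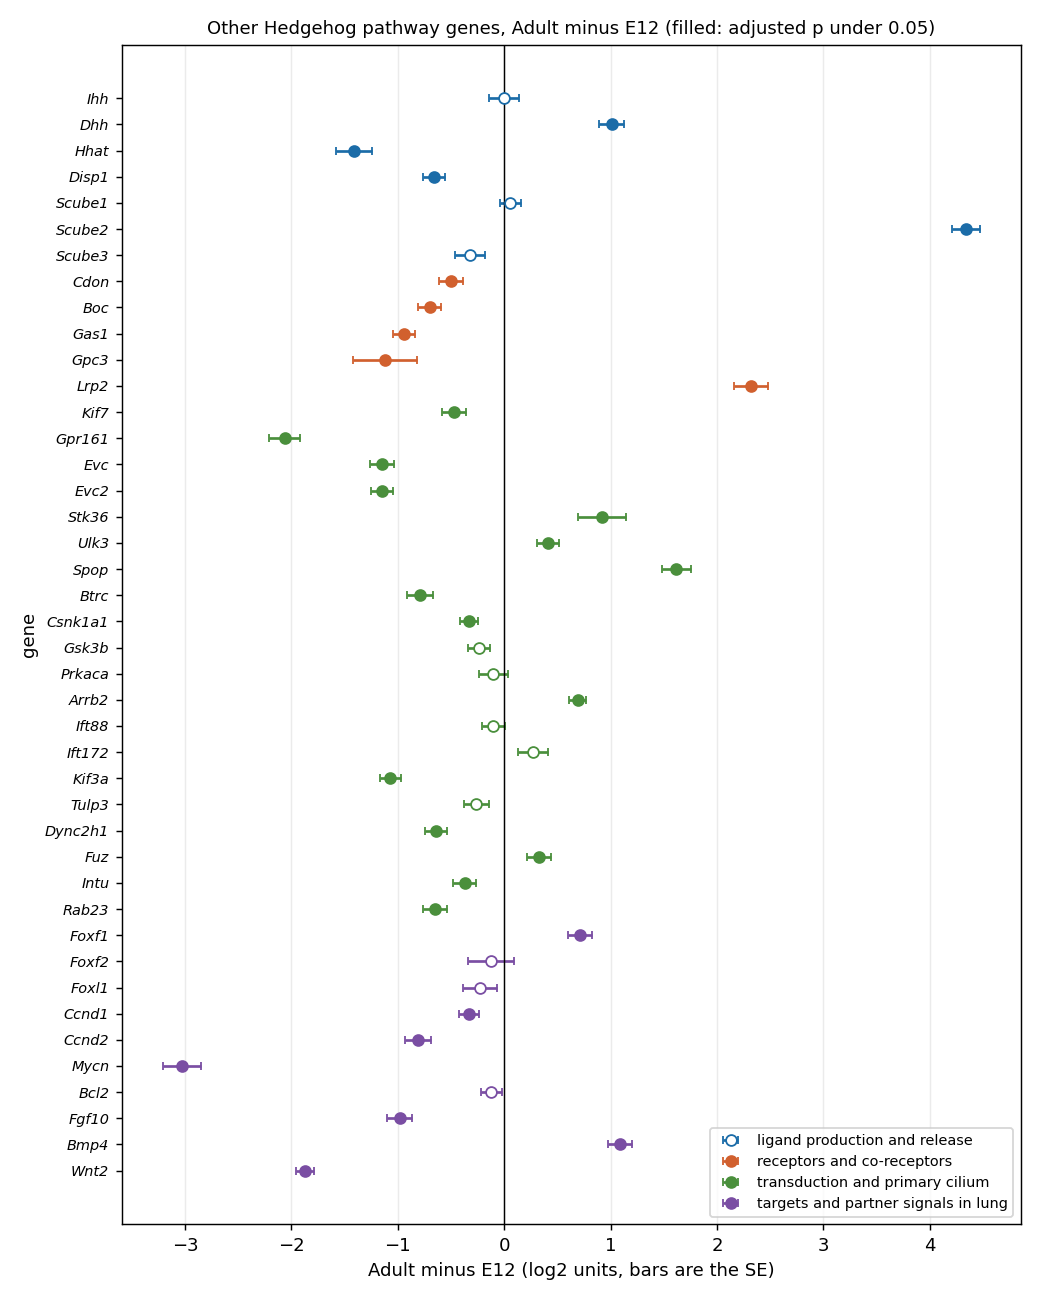
Adult minus E12 in log2 units (x axis, bars are the SE) for 42 other genes of the pathway (y axis), coloured by list, with filled circles at an adjusted p under 0.05. Scube2, at 4.34, lies farthest right and Mycn, at -3.03, farthest left.

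Over the 14 arrays the values of Ptch1, Smo, Gli1, Gli2 and Gli3 had Pearson correlations with each other between 0.92 and 0.97, Shh and Hhip had 0.90, and Hhip and Gli1 had -0.07. These arrays share 7 time points and their replicates, so the values describe courses only. Likeness was sought among 11319 other genes with a highest time-point mean above 7, without clone or predicted gene names. Those most like Gli1 were the tubulin gene Tubb2b (r = 0.992), Glmn (0.991) and Slc7a6 (0.991). Gli3 was most like Smarcc1 (0.993), a subunit of a chromatin remodeling complex, Igdcc4 (0.99) and the Wnt receptor gene Fzd3 (0.987). Gli2 was most like the netrin receptor gene Unc5c (0.984), Clip3 (0.982) and Plppr3 (0.981), and Smo most like Phf14 (0.979), Hnrnpa0 (0.975) and E2f3 (0.973). Such courses were common: 282 genes had a correlation above 0.95 with Gli1, 436 with Gli3, 81 with Gli2 and 62 with Smo. The course of Hhip was rarer, with 1 gene above 0.95, Gprin3 (0.966), followed by Cd164l2 (0.945) and Rtkn (0.943). Shh had 1 as well, Txndc12 (0.957), followed by Klhl23 (0.938) and Large2 (0.934). A Pearson correlation takes no account of the size of a change. The ranges of the genes named as alike ran from 0.49 (Txndc12) to 4.25 (Tubb2b), against 1.82 for Shh and 3.0 for Gli1.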

How the data were processed

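The authors deposited log2 values of oligonucleotide arrays. They were made in Partek 6.4 software. Normalization is called Robust Multichip Average in the methods but GCRMA in the submitters' processing notes, so which of them gave the log2 values is not settled. No CEL files were used here. After removal of 64 control probe sets, 45037 remained, of which 34945 had 1 gene symbol, 932 several and 9160 none. Symbols were looked up by Entrez identifier in GRCm38.p6 tables (34741 matched, 0 renamed). For each gene the brightest probe set, by its mean across arrays, was used.

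In R 4.3.3 with limma 3.58.1, time-point means were fitted to all arrays (residual df 7, prior df 6.04), with Benjamini-Hochberg adjustment over all probe sets and calls at 0.05. The paper's thresholds on Max (7) and Range (1.2) defined dynamic genes. The number of arrays, 2 per time point, limits the precision. The genes, lists and tests were chosen with earlier results of these data known. Named genes were the 8, all listed ligands and receptors, up to 6 per other list with the lowest adjusted p, and the 3 most correlated genes of each dynamic gene. The fit was tested on simulated data. Replicate numbers did not pair the arrays: correlations of same-numbered deviations ran from -0.18 to 0.08 over 21 pairs of time points.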

Additional observations from a re-analysis of the deposited data

How the results depend on the processing

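Of the Adult minus E12 results of the 8 genes under 21 other settings, 160 of 168 kept their direction and side of the threshold, and 8 no longer passed (7 for Sufu and 1 for Hhip). The step E16 minus E14 was least stable, with 143 of 168 unchanged. When each array was left out in turn, the genes lower in Adult than at E12 numbered 7 to 8, all step calls together 21 to 27 against 26, and dynamic genes 6 throughout. By step, the ranges were 0 to 2 higher and 3 to 6 lower at E16, 1 to 2 higher and 3 to 4 lower at E18, 0 to 2 higher and 1 lower at P2, 1 to 2 lower at P10, and 6 to 8 lower in Adult. With the unmoderated test 1 gene was higher and 3 lower at E16, and 1 higher at P2. With the mean of all probe sets of a gene, 1 was higher at E16, 1 at E18 and 1 at P2. With the next brightest probe set, 1 was higher at E16 and 1 at E18, Shh differed by -0.01 at E18 and Sufu by 0.13 at E16, opposite to the brightest. The cause of these changes was not tested. With the replicate number as a block, though the numbers did not pair the arrays, 1 of the calls was lost, that of Ptch1 at E16, with a difference of -0.37 (adjusted p = 0.0529).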
